A study of Mus musculus with 2 samples.

Results

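The clustered protocadherin genes were described in total RNA of the left cerebral cortex. Members were taken by name: every gene entry whose symbol begins with Pcdha, Pcdhb or Pcdhg followed by an isoform number, or with Pcdhac, Pcdhga, Pcdhgb or Pcdhgc. This gave 58 of 55536 gene entries under 57 symbols. They comprised 12 alpha, 22 beta, 12 gamma A and 7 gamma B members, called alternate here, and 5 C-type members (Pcdhac1, Pcdhac2, Pcdhgc3, Pcdhgc4 and Pcdhgc5). All 58 lie on the plus strand of chromosome 18 in mm10, with the alpha cluster at chr18:36930184-37187661, the beta cluster at chr18:37264938-37524479 and the gamma cluster at chr18:37661793-37841873. The annotation classed 57 entries as protein-coding and Pcdhgb8 as a polymorphic pseudogene.

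Clustered protocadherins are cadherin-related adhesion proteins of the neuronal surface. They pair in cis and bind matching isoforms on the facing membrane, which lets a neuron tell its own branches from those of other neurons. Each alpha and gamma isoform begins at its own promoter with a large variable exon that codes for the extracellular domains. This exon is spliced to constant exons shared by the whole cluster, which code for the common end of the cytoplasmic tail. Beta genes have a single coding exon and no constant exons. Alternate promoters are chosen in a cell-specific, largely random way that depends on DNA methylation, the insulator protein CTCF and cohesin, whereas C-type promoters are used more uniformly across neurons.

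The tissue came from 2 adult male mice of the strain B6CASTF1/J, the F1 cross of B6 with Cast, at 8 to 10 months of age. The mice came from The Jackson Laboratory, with no treatment or engineered allele named in the labels. The labels call them animals 2 and 4 and biological replicates 1 and 2. Both form 1 group, so no condition was compared and no p-value is given. A single donor label is attached to both libraries, and their being separate animals rests on the animal numbers. Each library was made from 300 ng of RNA depleted of ribosomal RNA, with ERCC spike-ins. Values are per replicate 1 and then replicate 2, or a mean ± SD (n = 2). The level used is TPM, a length-normalised abundance of transcripts. Each library was quantified in 2 ways: the first quantification gave expected counts and TPM from alignments to the transcriptome, and the second gave estimated counts and TPM directly from the reads. Unless the second is named, values are of the first. Allele of origin was not analysed here, and Cast reads were assigned against mm10.

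Replicates 1 and 2 held 26925514 and 30143684 expected counts, and the members took 30086 and 34470 of these. Members made up 0.122% and 0.126% of the counts of genes other than ribosomal RNA. The coefficient of variation between animals was 0.109 across 18284 genes averaging 10 counts or more. Markers fitted the labelled tissue in part: all 7 markers of cortical excitatory neurons, all 3 of inhibitory neurons, all 3 of astrocytes and all 3 of oligodendrocytes reached 1 TPM in both animals. All 4 markers of striatal neurons did so too, at a summed 358.5 and 383.4 TPM, while no marker of cerebellar granule cells or serotonergic neurons did, and Gabra6 and Fev were at 0. Choroid plexus markers differed between the libraries: the 10 genes summed to 978.6 and 110.6 TPM, and all 8 that averaged 50 normalised counts or more were at least 2-fold higher in replicate 1. In bulk tissue, fewer cells of a type and less RNA per cell cannot be told apart.

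Nearly the whole family was detected. Of the 58 members, 57 stood at 1 TPM or more in each animal, where 27.1% of all gene entries and 59.0% of 22028 protein-coding entries did so. The exception was Pcdhb1, the first gene of the beta cluster, at 0.16 and 0.19 TPM from 7 and 9 expected counts. No member was at 0 in both animals, and 51 members reached 2 TPM in both. Individual levels were low. The median member stood at 4.195 ± 0.226 TPM, below the median of 16.3 TPM of the protein-coding entries that reached 1 TPM in both animals. Summed over members, the gamma cluster held 265.5 and 271.8 TPM, the beta cluster 65.99 and 78.19 TPM, and the alpha cluster 63.29 and 65.12 TPM. The gamma cluster thus took 66.4% ± 1.26 of the members' TPM, the beta cluster 17.8% ± 1.499 and the alpha cluster 15.9% ± 0.244. The gamma sum was above both other sums in each animal by far more than the difference between animals, whereas the alpha and beta sums were close in replicate 1. By the second quantification the alpha sum was 51.28 and 81.12 TPM and the beta sum 51.28 and 80.95 TPM, so the order of these 2 clusters was not resolved. The order of members by level was alike in the 2 animals (Spearman's rho 0.92 over 58 members, a description, since all members of an animal share its library).

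**Figure D1:**
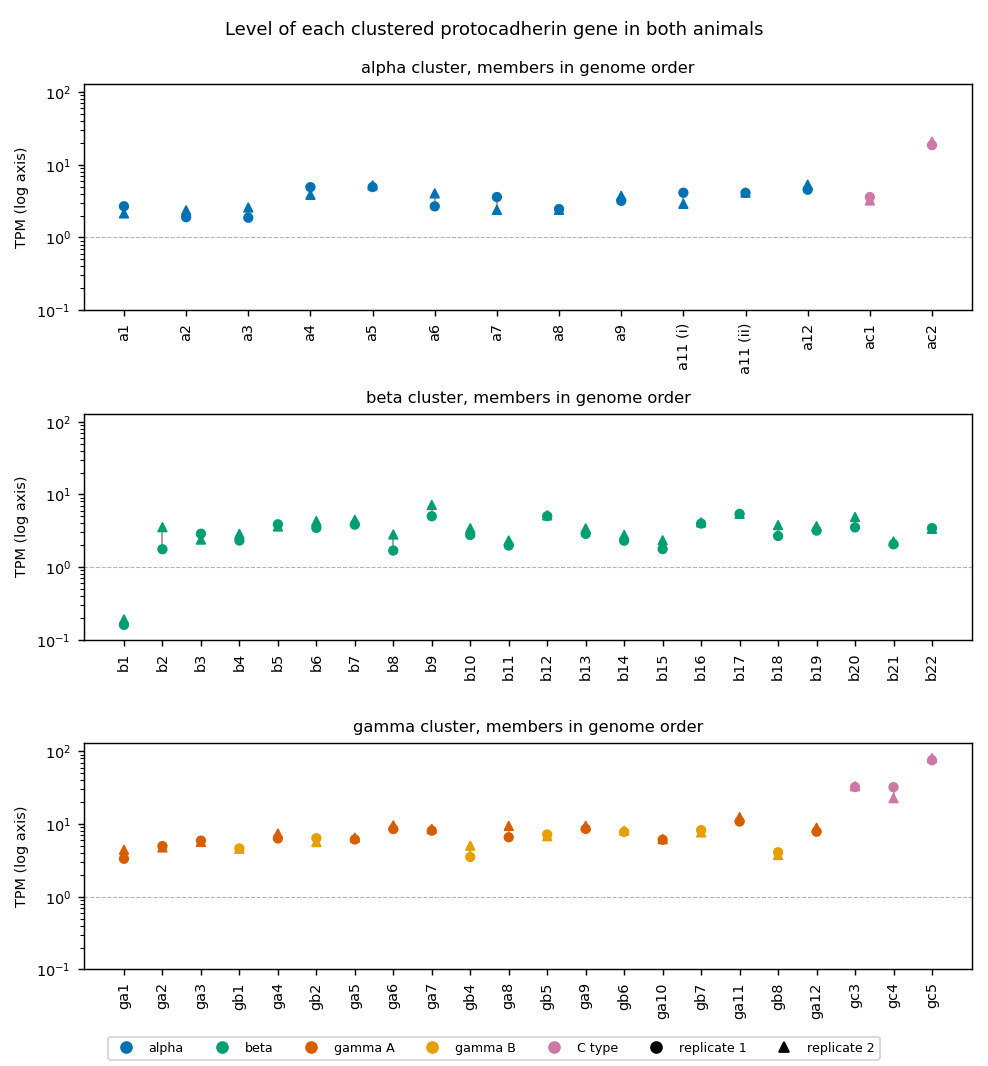
TPM on a log axis for each of the 58 members, in genome order within the alpha, beta and gamma clusters; circles are replicate 1, triangles replicate 2, the grey line joins them, colours give the member group, and the dashed line marks 1 TPM. The symbols are shortened by leaving out Pcdh; a11 (i) is ENSMUSG00000007440 and a11 (ii) is ENSMUSG00000102206. Alternate members lie in a narrow band, apart from b1 at 0.16 and 0.19 TPM, while gc3, gc4, gc5 and ac2 stand above it.

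Alpha isoforms, whose common tail binds the tyrosine kinases encoded by Ptk2 and Ptk2b, were expressed within a narrow range. The 12 alternate alpha members had a median of 3.36 ± 0.053 TPM, and the highest mean was 2.38 times the lowest. Pcdha5 stood at 4.94 and 5.21 TPM. Pcdha12, the alternate isoform nearest the constant exons, stood at 4.54 and 5.33 TPM. Pcdha4 stood at 4.93 and 3.86 TPM. These 3 were the highest by mean of the first quantification. Pcdha5 and Pcdha4 were level in replicate 1 and Pcdha5 was above in replicate 2, while Pcdha12 overlapped both. By the second quantification Pcdha4 averaged 3.50 TPM, below Pcdha11 (ENSMUSG00000102206) at 8.96 TPM. The first quantification put 46.8% and 14.4% of Pcdha4 on the intron-retaining Pcdha4-203, and the protein-coding Pcdha4-202 stood at 2.63 and 3.18 TPM. The lowest were Pcdha2 at 1.90 and 2.36 TPM and Pcdha3 at 1.87 and 2.58 TPM, which overlapped each other. They were lowest by mean only, since Pcdha1, at 2.69 and 2.14 TPM, was below both in replicate 2. Values of Pcdha2 and Pcdha3 lay below those of Pcdha4, Pcdha5 and Pcdha12 in each animal. Across the 12, a later place in the cluster went with a higher mean level (Spearman's rho 0.57, n = 12 genes of the same 2 libraries, a description). The alpha entries run to a shared end, so the genomic span of an earlier one includes the variable exons of later ones. In total RNA, reads of unspliced RNA from an earlier promoter were not separated from those of later members. Their part in this order was not tested. The symbol Pcdha11 is carried by 2 entries. ENSMUSG00000007440, at 4.13 and 2.90 TPM, overlaps the place that RefSeq (GRCm38.p6) gives to Pcdha10, and ENSMUSG00000102206, at 4.11 and 4.14 TPM, overlaps the RefSeq place of Pcdha11.

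Beta genes code for adhesion proteins with a short tail of their own. The 22 members had a median of 3.18 ± 0.428 TPM. Pcdhb9 had the highest mean, at 5.01 and 7.16 TPM. Pcdhb17 followed at 5.40 and 5.41 TPM, and Pcdhb12 at 5.03 and 5.15 TPM. Pcdhb9 was below Pcdhb17 in replicate 1 and above it in replicate 2, so their order was not resolved. At the lower end, Pcdhb1 was set apart from the rest, as given above. The next by mean only was Pcdhb15, at 1.77 and 2.34 TPM, since further members were below it in each animal. The other members had means between those of Pcdhb15 and Pcdhb9, and place in the cluster went only weakly with level (Spearman's rho 0.21, n = 22 genes, a description). Pcdhb2, at 1.76 and 3.54 TPM, was listed 2-fold apart in TPM but not in counts, where it had 84.01 and 128.81 reads. In replicate 2, 35.2% of its TPM was put on the 511-base transcript Pcdhb2-202, which was at 0 in replicate 1. TPM of the 2813-base Pcdhb2-201 was 1.76 and 2.29.

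Gamma A and gamma B isoforms, named for subfamilies of the variable exon and interleaved along the cluster, were higher than alpha and beta isoforms. The 12 gamma A members had a median of 7.23 ± 1.07 TPM, and the 7 gamma B members 6.02 ± 0.523 TPM. Both medians were above those of the alternate alpha and beta members in each animal. Pcdhga11 was the highest alternate member of any cluster, at 10.84 and 12.46 TPM. Pcdhga6 stood at 8.54 and 9.59 TPM, and Pcdhga9 at 8.57 and 9.44 TPM. Values of these last 2 overlapped, while Pcdhga11 was above both in each animal. The lowest gamma A members were Pcdhga1, the first gene of the cluster, at 3.33 and 4.42 TPM, and Pcdhga2 at 4.98 and 4.77 TPM. Across the 12 gamma A members, a later place went with a higher level (Spearman's rho 0.73, n = 12 genes, a description). The span of an earlier gamma entry likewise includes later variable exons, and the part of unspliced RNA in this order was not tested. Of gamma B, Pcdhgb6 stood at 7.80 and 8.15 TPM. Pcdhgb7 stood at 8.25 and 7.67 TPM, and Pcdhgb5 at 7.19 and 6.81 TPM. The lowest by mean were Pcdhgb8, at 4.10 and 3.75 TPM, and Pcdhgb4, at 3.53 and 5.04 TPM. Pcdhgb1, at 4.62 and 4.57 TPM, lay within the range of Pcdhgb4. Pcdhgb6 and Pcdhgb7 overlapped, as did Pcdhgb8 and Pcdhgb4, and place went with level hardly at all (Spearman's rho 0.11, n = 7 genes, a description).

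The 5 C-type isoforms carried about as much TPM as all alternate isoforms of their 2 clusters. They took 49.4% and 47.7% of the summed alpha and gamma TPM. Pcdhgc5, the last gene of the gamma cluster, had the highest level of all members, at 75.69 and 80.89 TPM. Pcdhgc3, which binds Axin1 through its own part of the tail and dampens Wnt signalling, stood at 32.34 and 33.14 TPM. Pcdhgc4, the isoform required for postnatal survival of mice through neuronal survival, stood at 32.25 and 22.72 TPM. Pcdhgc5 was above the other 2 in each animal, and the order of Pcdhgc3 and Pcdhgc4 was clear only in replicate 2. Pcdhac2, the isoform needed in serotonergic axons for their even spacing, stood at 18.65 and 20.80 TPM. Pcdhac1, the other C-type isoform of the alpha cluster, stood at 3.60 and 3.23 TPM, within the range of the alternate alpha members. Pcdhac2 alone thus made up 30.7% ± 1.75 of the alpha cluster's TPM and Pcdhac1 5.32% ± 0.515. Pcdhgc5 made up 29.1% ± 0.886 of the gamma cluster's TPM, Pcdhgc3 12.2% ± 0.00846 and Pcdhgc4 10.3% ± 2.68. Markers of serotonergic neurons, whose cell bodies lie in the brainstem, were below 1 TPM in both libraries. The C-type share was lower by the second quantification, at 43.4% ± 1.46, against 48.6% ± 1.21 by the first. Pcdhgc4 was the C-type member with the largest difference between quantifications, and is described below.

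Sharing of sequence bears on all these levels. The longest coding transcript of each alpha and gamma member has 4 exons, and that of each beta member 1 exon. Coding lengths ran from 2316 to 3018 bases. Stretches of 100 bases were compared across all annotated transcripts. There were 2761 such windows present in every one of the 14 alpha-cluster members, 2017 in every one of the 22 gamma-cluster members, and 0 in every beta member. The share of a member's windows found in no other gene entry had a median of 99.8% for beta members. It was 56.4% for gamma A, 54.3% for gamma B, 63.2% for C-type and 44.2% for alternate alpha members. Pcdha4 had the lowest share, 11.6%. An expected count that is not whole holds reads divided between entries. Such counts were found in both animals for 50 of the 57 members averaging 10 counts or more, against 13.3% of all gene entries. They included all gamma members and 15 of 22 beta members. The posterior SD of the count, which the deposited tables give for the uncertainty of assigning reads, had a median of 3.12% of the count over members. Its median over all gene entries with at least 10 counts was 0%. By group it was 6.02% for alternate alpha, 0.401% for beta, 3.51% for gamma A, 4.71% for gamma B and 1.67% for C-type members. Pcdha4, at 8.83%, and Pcdhgc4, at 7.34%, had the largest.

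**Figure D2:**
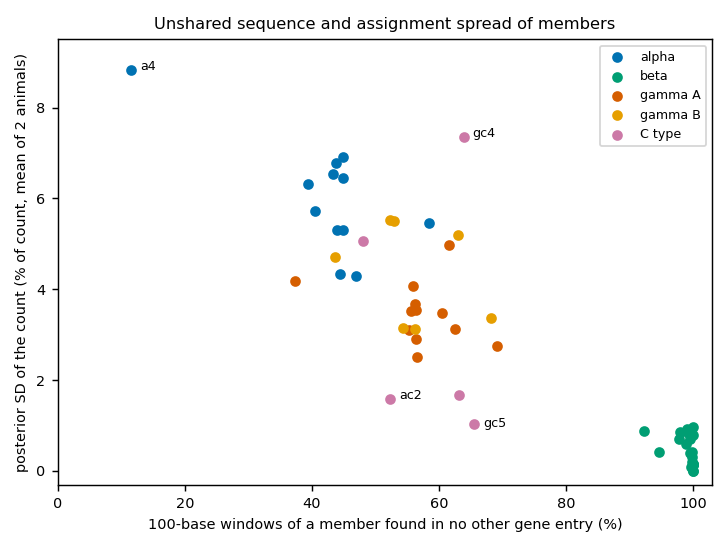
For each of the 58 members, the percentage of its 100-base windows found in no other gene entry (horizontal axis) and the posterior SD of its count as a percentage of the count, mean of 2 animals (vertical axis); colours give the member group. Beta members sit at the lower right with 92.3% or more unshared windows and an SD under 1%, Pcdha4 at the upper left, and Pcdhgc4 above the other C-type members.

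Transcripts within a member differed in how well they were resolved. Of the 58 members, 22 had more than 1 annotated transcript, and 89 transcripts were annotated in all. By the mean percentage of the 2 animals, the leading transcript was the same by both quantifications for 17 of the 22, though not always in each animal. Pcdhgb8 differed most: the second quantification put 81.5% of it on the protein-coding Pcdhgb8-202, which was at 0 by the first, and the first put 100% on Pcdhgb8-201, the transcript classed as a polymorphic pseudogene. Pcdhgb8 as a gene stood at 3.35 and 4.52 TPM by the second quantification and at 4.10 and 3.75 TPM by the first. For Pcdha11 (ENSMUSG00000102206), the intron-retaining Pcdha11-205 led by the first quantification with 59.3% ± 4.60 of the gene. By the second it had 41.3% and 19.2% in the 2 animals. Pcdhb8-201 held 100% of Pcdhb8 by the second quantification, and 85.2% and 46.3% by the first. Pcdhgb2-202 held 69.2% and 34.3% of Pcdhgb2 by the second quantification, and 62.9% and 90.9% by the first. For Pcdhb8 by the first quantification, and for Pcdhgb2 by each, the share differed more between the animals than its mean differed between quantifications. Noncoding, intron-retaining or decay-prone transcripts were annotated for 12 members and held 6.81% ± 0.111 of the members' TPM by the second quantification, and 5.33% ± 1.39 by the first.

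Most members had like levels by both quantifications. Between them, 2 of 57 members with a mean of at least 1 TPM differed at least 2-fold, against 8.59% of 16567 gene entries. The median log2 ratio, second over first, was -0.05 for members and 0.14 for all gene entries. Its sign differed between the animals: it was -0.29 for members and -0.13 for all gene entries in replicate 1, and 0.15 and 0.35 in replicate 2. The members' median was thus below that of all gene entries in each animal. Over the members, Spearman's rho between the quantifications was 0.97 (n = 58 genes quantified from the same libraries, a description). Both entries at or past 2-fold turned on single transcripts. Pcdha11 (ENSMUSG00000102206) stood at 3.94 and 13.97 TPM by the second quantification and at 4.11 and 4.14 TPM by the first, a log2 ratio of 1.10. The 625-base Pcdha11-204 stood at 0.755 and 9.55 TPM by the second, from 6.63 and 58.6 estimated counts, and was at 0 by the first. The other entry was Pcdhgc4.

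**Figure D3:**
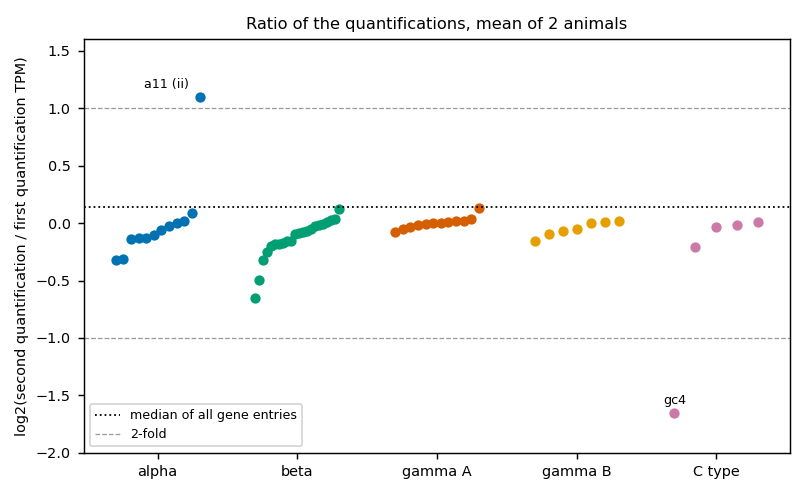
Log2 ratio of the mean TPM by the second quantification over that by the first, for the 58 members in order of the ratio within each group; the dotted line is the median of all gene entries (0.14) and dashed lines mark 2-fold. Only a11 (ii), at 1.10, and gc4, at -1.66, pass the dashed lines.

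Pcdhgc4 was lower by the second quantification, at 7.76 and 9.52 TPM, against 32.25 and 22.72 TPM by the first, a log2 ratio of -1.66. The 5024-base transcript Pcdhgc4-201 was close by both, at 6.16 and 8.24 TPM by the second and 6.34 and 6.90 TPM by the first. The difference lay in the 2272-base Pcdhgc4-203, which was at 0 in both animals by the second quantification and at 23.20 and 14.60 TPM by the first. In the same region the 593-base Pcdhgc5-204 was at 0 by the second quantification and at 8.33 and 12.04 TPM by the first. Gm38182 is a processed-transcript entry that overlaps the gamma constant exons and holds 529 of the 2017 windows common to the gamma members. It stood at 14.3 and 63.1 TPM by the second quantification and at 0.06 and 0.99 TPM by the first. By the second quantification, its TPM lay on Gm38182-204 in replicate 1 and on Gm38182-205 in replicate 2. These are 741 and 742 bases long. Pcdhgc4-203, Pcdhgc5-203, Pcdhgc5-204 and Gm38182 together held 14.3 and 63.1 TPM by the second quantification and 32.2 and 28.7 TPM by the first. The longest coding transcripts of Pcdhgc3, Pcdhgc4 and Pcdhgc5 together held 85.7 and 118.4 TPM by the second and 101.5 and 105.1 TPM by the first. For short transcripts a count weighs more in the second quantification, since Gm38182-205 had an effective length of 493.9 and 432.0 bases there and 642 bases in the first. Whether Pcdhgc4-203, Gm38182 or another entry was the source of the reads put on Pcdhgc4-203 was not tested. On counts, Pcdhgc4 had 792.3 and 784.3 reads by the second quantification and 1578.6 and 1327.4 by the first. Pcdhgc4-203 had 886.6 and 607.3 counts by the first, while Gm38182 had 164.9 and 508.5 by the second. These counts were far apart in replicate 1.

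**Figure D4:**
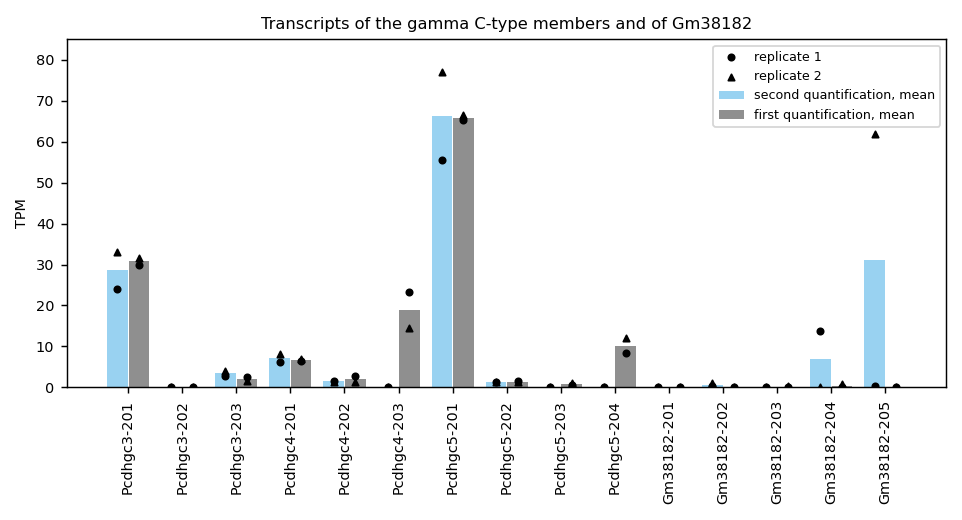
TPM of each annotated transcript of Pcdhgc3, Pcdhgc4, Pcdhgc5 and Gm38182; bars are the mean of 2 animals by the second quantification (blue) and the first (grey), circles are replicate 1 and triangles replicate 2. Pcdhgc3-201, Pcdhgc4-201 and Pcdhgc5-201 have like means by both, while Pcdhgc4-203 and Pcdhgc5-204 have TPM only by the first and Gm38182-204 and Gm38182-205 almost only by the second.

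Between the animals, none of the 57 members averaging 50 normalised counts or more differed 2-fold, a count near the background of 0.861% of 14163 genes. At 1.5-fold, 1 member was past the level, against 3.59% of those genes. This was Pcdha7, at 3.60 and 2.39 TPM, with a log2 ratio of replicate 1 over replicate 2 of 0.63 (exact 95% interval 0.39 to 0.88, counting error only). By the second quantification its log2 ratio was 0.57, under 1.5-fold. The median absolute fold was 1.11 over members and 1.08 over all genes. Members have lower counts than many genes, and a comparison at like counts is the more direct one. In bins of mean count, 51 of 57 members lay within the central 95% of all genes and 6 outside it, where 5.07% of all genes lie. Those outside were Pcdha7 (log2 ratio 0.63), Pcdha11 (ENSMUSG00000007440; 0.55) and Pcdhgc4 (0.42), which were higher in replicate 1, and Pcdhgb4 (-0.50), Pcdhb9 (-0.47) and Pcdhga8 (-0.47), which were higher in replicate 2. These 6 were chosen after their values were seen. By the second quantification, which counts reads of the same 2 libraries and so is no independent check, all 6 kept their direction. Log2 ratios there were 0.57 for Pcdha7, 0.47 for Pcdha11 (ENSMUSG00000007440) and 0.18 for Pcdhgc4. They were -0.40 for Pcdhgb4, -0.26 for Pcdhb9 and -0.38 for Pcdhga8. For Pcdhgc4, the higher count in replicate 1 by the first quantification lay mainly in Pcdhgc4-203, at 886.6 and 607.3 counts. That transcript was at 0 by the second quantification. Pcdhgc4-201 had 549.1 and 650.6 counts by the first and was thus not higher in replicate 1 there. By the second it had 686.1 and 718.3 counts before scaling, the library of replicate 2 being the larger. The gene's log2 ratio of 0.18 by the second thus did not come from Pcdhgc4-203.

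Replicate 1 was the higher in 23 of the 57 members, against 50.2% of all genes. The median log2 ratio was -0.04 over members and 0.00 over all genes. It was -0.17 over the beta members, of which 6 of 21 were higher in replicate 1. Gamma A members were at -0.12, with 3 of 12 higher in replicate 1. The median was 0.02 over the alternate alpha members (6 of 12), 0.05 over gamma B members (5 of 7) and 0.02 over C-type members (3 of 5). With spike-in scaling the median of all genes moved to 0.07 and that of the members to 0.03, so the members' median changed sign but stayed below that of all genes. Choroid plexus markers were far higher in replicate 1, as given above. Of the 4 highest members, log2 ratios were 0.02 for Pcdhgc5, -0.0034 for Pcdhgc3, 0.42 for Pcdhgc4 and -0.11 for Pcdhac2. The part of choroid plexus RNA in these values was not tested.

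**Figure D5:**
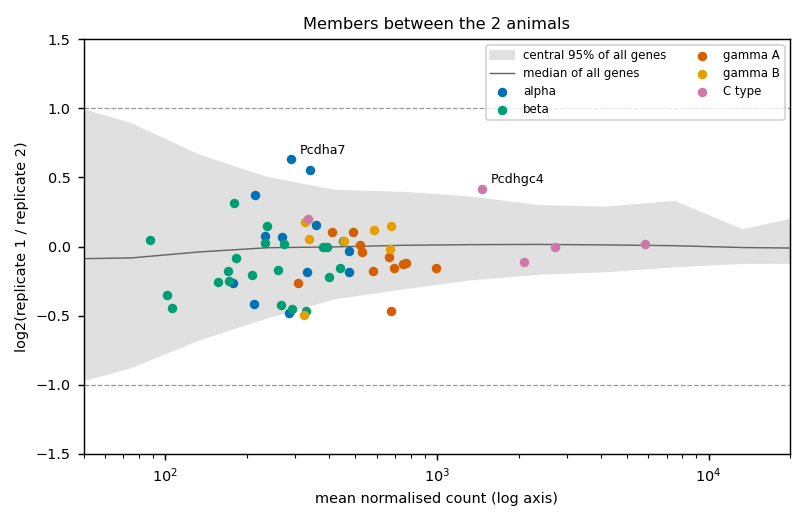
Log2 ratio of replicate 1 over replicate 2 against mean normalised count on a log axis, for the 57 members averaging 50 normalised counts or more; colours give the member group, the grey band holds the central 95% of all genes in each bin of mean count and the line their median. No member reaches the dashed 2-fold lines, and 51 of 57 lie within the band.

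By the first quantification, other entries inside the clusters were low, while Gm38182 stood higher by the second, as given above. On the same strand, the unprocessed pseudogene Gm36858 stood at 1.96 and 1.74 TPM and shared windows with 8 members. The pseudogenes Gm18150 and Gm19035, which shared none, stood at 2.40 and 1.34 TPM and at 1.69 and 1.41 TPM. Gm42416, a read-through entry from the alpha to the gamma cluster that holds 347 of the 2017 common gamma windows, was at 0 in both animals by the first quantification. It shared windows with 30 members and stood at 0.47 and 0.70 TPM by the second quantification. On the opposite strand, Gm26672 in the gamma cluster had the highest level, at 1.56 and 1.10 TPM. Whether counting used the strand was not stated, and reads of a member and of an antisense entry over it cannot be told apart.

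Regulators and partners of the family were expressed at higher levels. Of 18 genes for chromatin regulators of the clusters, 17 reached 1 TPM in both animals, with a median of 25.1 ± 1.12 TPM. Dnmt3a, a de novo DNA methyltransferase, was highest, at 48.08 and 47.48 TPM. Rad21, a cohesin subunit, stood at 35.96 and 37.34 TPM. Dnmt3b, the other de novo methyltransferase, whose loss in mice alters alternate promoter choice, was lowest at 0.37 and 0.26 TPM. The insulator gene Ctcf stood at 31.62 and 30.01 TPM.

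All 20 genes for cytoplasmic and membrane partners reached 1 TPM in both animals, with a median of 59.2 ± 0.212 TPM. Cyfip2 and Nckap1, subunits of the WAVE complex that builds branched actin, stood at 284.2 and 287.1 TPM and at 192.4 and 206.6 TPM. Rac1, the small GTPase that activates the complex, stood at 180.3 and 186.5 TPM. Ret, a receptor kinase, was lowest at 1.76 and 1.66 TPM. Ptk2b and Ptk2, the kinases bound by the alpha and gamma tails, stood at 174.5 and 180.1 TPM and at 78.62 and 73.05 TPM.

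Protocadherins outside the clusters had a median of 17.1 ± 1.12 TPM over 13 genes, of which 12 reached 1 TPM in both animals. Pcdh1 stood at 112.5 and 100.2 TPM. Pcdh10 stood at 86.76 and 95.59 TPM, and Pcdh9 at 78.39 and 91.92 TPM. These 3 were each above Pcdhgc5 in both animals. The lowest was Pcdh12, known from endothelial cells, at 0.19 and 0.14 TPM. Of 11 genes next to or between the clusters, 9 reached 1 TPM in both animals. Rell2 was highest at 65.96 and 65.86 TPM, followed by Zmat2 at 62.72 and 64.02 TPM and Ik at 42.47 and 41.46 TPM. Slc25a2, between the beta and gamma clusters, was lowest at 0.36 and 0.49 TPM. None of the counted genes of these 4 lists differed 2-fold between the animals, against 0.861% of all genes.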

How the data were processed

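Total RNA of the left cerebral cortex of 2 mice was measured by stranded sequencing. Per the file headers, the authors deposited gene and transcript tables on mm10 with GENCODE M21 that hold expected counts, TPM and FPKM. The same deposited tables give the percent of each gene assigned to a transcript, a posterior SD of the count, and interval bounds of TPM, read here as a score because their level is not stated. A second deposited transcript table per library holds estimated counts and TPM. The sources used here name no program or version and no strand setting for counting, which leaves overlapping, antisense and near-identical entries uncertain.

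Members were matched by symbol and joined by gene ID, and second-quantification values were summed per gene. Log2 ratios between animals used expected counts rounded to whole numbers, without ribosomal RNA genes, tRNA entries and spike-ins, scaled by TMM in edgeR 4.0.16 (library sizes 24688669 and 27440152, prior count 2). Ratios between quantifications used mean TPM with 0.1 added. A count was whole within 0.005. Windows of 100 bases were read from the GENCODE M21 transcripts. Intervals are exact 95% binomial intervals. In simulated libraries with a coefficient of variation of 0.1, all 200 genes changed 4-fold were recovered among 14153, with 0 unchanged genes called. The changed genes averaged at least 200 counts, more than several members had. Errors in assigning shared reads were not simulated, so recovery of 2-fold changes in members was not tested. As alternatives, values were recomputed on the second quantification, FPKM and counts, with spike-in scaling or size factors of DESeq2 1.42.0, with other filters and pseudocounts, and for single animals. Software comprised Python 3.11.15 with scipy 1.17.1, numpy 2.4.6, matplotlib 3.10.9 and pandas 2.3.3, and R 4.3.3.

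The members and gene lists were chosen with earlier results of these data known. Named were, in each group, the 3 highest and 2 lowest members, every C-type member, members at least 2-fold apart between quantifications or animals, the 5 with the largest disagreement in the leading transcript, same-strand entries in the clusters with a mean of at least 1 TPM, and the 3 highest and the lowest gene of each list. Pcdhb2, the members outside the central band, other entries in the clusters and 3 further listed genes (Ctcf, Ptk2 and Ptk2b) were named after their values were seen. A gene that the rule names is not reported here.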

Additional observations from a re-analysis of the deposited data

How the results depend on the processing

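No paired analysis was possible because there is 1 group and nothing to pair. Under every detection level, unit and single animal tried, 51 to 57 of 58 members were detected, and no scaling, filter or prior count tried gave a 2-fold difference between animals; at 1.5-fold there was 1 member. FPKM, another scale, gave a median of 2.70 and sums of 41.4, 46.4 and 173.0 for the alpha, beta and gamma clusters. By the second quantification the alpha cluster summed to 66.2 TPM, the beta cluster to 66.1 TPM and the gamma cluster to 237.2 TPM, with gamma at 196.0 and 278.3 TPM in replicates 1 and 2. On counts the alpha cluster was above the beta cluster, at 18.9% and 16.5% of the members. The C-type share of alpha and gamma was 43.4% by the second quantification, against 48.6% by the first, and 46.3% on expected counts. It was 38.8% by the second quantification with entries that share windows added, an alternative chosen after seeing the data. The members' median log2 ratio between animals was 0.032 with spike-in scaling and -0.095 on log2(TPM + 1), against -0.039. Members 2-fold apart between quantifications numbered 0 on counts and 1 with a pseudocount of 1 TPM, where Pcdhgc4 was left, and 1 to 2 with 1 animal left out. Pcdha11 (ENSMUSG00000102206) was not among them without replicate 2. The members' median log2 ratio between quantifications was 0.035 on counts and -0.29 to 0.15 with 1 animal left out, against -0.051. Low counts limit the precision of most members, and 2 animals give an SD that is itself poorly known.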
